A study of Homo sapiens with 2 samples.

Results

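Cells of an epithelial sheet are held together at their sides by tight junctions, adherens junctions and desmosomes, and the genes described here encode parts of those structures and of the complexes that set up cell polarity. The 33 genes were listed by name and role, with earlier results of these data known: 13 of the tight junction, 5 of the adherens junction and related adhesion, 9 of the desmosome, 4 of polarity complexes, and 2 epithelial genes outside these groups. A probe set that names 1 gene was found for 30 of the 33, out of 19775 genes on the array. CTNND1 and ESRP2 were read only by probe sets that also name another gene, and no probe set in the table used here names F11R, so these 3 have no value in the comparison.

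HT-29, a cell line long established from a human colorectal adenocarcinoma, was the source of the RNA, which was taken 72 h after small interfering RNAs (siRNAs) were transfected. The siIFITM1 culture received an siRNA against IFITM1, an interferon-induced membrane protein, and the siLuc culture received one against firefly luciferase, a gene that human cells lack. Both cultures therefore carried transfected siRNA, and no untransfected cells were compared. The sequences of the siRNAs and their number per target were not given in the sources used here. Each siRNA had 1 array, so differences cannot be set against a spread between cultures, and no test was run.

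Values are MAS5 signals, a summary of the probes of a probe set on a linear scale, and ratios are log2 of siIFITM1 over siLuc. A gene with several probe sets is represented by its main probe set, the one whose log2 signal averaged over the 2 arrays was highest. A gene passed the filter where that mean reached a signal of 57.4, the median over the array, and it is called brighter where it reached 393, the 75th percentile. All 30 measured members passed and 28 were brighter, and EVPL and EVPLL were dimmer. The lines of size used are 2-fold and a log2 ratio of 0.32 in either direction, which is 25% higher or 20% lower than siLuc and is called the small line. They stand beside 1 yardstick, the SD of log2 ratios among a gene's own probe sets, which was 0.193 for brighter and 0.496 for dimmer probe sets. The precision of each value is limited by this number of arrays.

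The signal for IFITM1 was 237 on the siIFITM1 array and 640 on the siLuc array, or 37.1% of the siLuc signal, at a probe set whose ID marks probes that can match several transcripts. The arrays were close in 3' to 5' signal, with log2 ratios of -0.11 and 0.13 for GAPDH and beta-actin on the siIFITM1 array, and -0.13 and 0.12 on the siLuc array. Of 11 markers of colonic epithelium, 8 passed the filter, all of them among the brighter genes, including villin (VIL1), galectin-4 (LGALS4) and the keratins KRT8, KRT18, KRT19 and KRT20. CDX1, CDX2 and GPA33 were below the filter on these arrays. The summed signal of this list was 164668 with siIFITM1 and 161411 with siLuc. Of 8 fibroblast and endothelial markers 0 were brighter and 5 were below the filter, including COL3A1, PDGFRB and CDH5, and the list summed to 861 with siIFITM1 and 707 with siLuc. The 3 that passed were LUM (386 with siIFITM1 and 132 with siLuc), COL1A1 (230 with siIFITM1 and 323 with siLuc) and PECAM1 (126 with siIFITM1 and 150 with siLuc). Of 6 markers of stratified epithelium with a probe set only KRT10 passed (3846 with siIFITM1 and 4447 with siLuc). That list summed to 3959 with siIFITM1 and 4583 with siLuc, most of it from KRT10. Of 5 leukocyte markers with a probe set 3 passed, and 1 of these was brighter, the lysozyme gene LYZ. The others that passed were CD79A (177 with siIFITM1 and 306 with siLuc) and CD14 (185 with siIFITM1 and 232 with siLuc). CD3E and the pan-leukocyte gene PTPRC were below the filter. The leukocyte list summed to 21066 with siIFITM1 and 24582 with siLuc. Most of this sum came from LYZ (20614 with siIFITM1 and 23964 with siLuc). The part of any of these in the ratios below was not tested.

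As background, claudins, occludin and the related MARVEL proteins form the sealing strands of the tight junction. Zonula occludens proteins and cingulin tie these strands to actin. At the adherens junction, catenins link cadherins to the cytoskeleton, and at the desmosome, desmosomal cadherins, plakoglobin, plakophilins and desmoplakin anchor keratin filaments. The Par, Crumbs and Lgl proteins divide the cell surface into an apical and a basolateral part. In the colon, tight junctions govern which ions and solutes pass between the cells.

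Junction and polarity members were more often higher than lower in siIFITM1 cells, by small amounts. Tight junction members made up 11 of the 23 that were above 0. Of the 30 members measured, 23 had a log2 ratio above 0 and 7 below it, where 47.4% of all 12225 genes past the filter were above 0. The median over members was 0.17, and over all genes past the filter it was -0.02. Among the 28 brighter members 22 were above 0, with a median of 0.19, where 50.5% of the 7793 brighter genes were above 0 and their median was 0.00. The spread was alike, with an SD of log2 ratios of 0.257 among brighter members and 0.263 among all brighter genes. In a culture read as a whole, a change in the share of cells with a transcript and a change in its amount per cell cannot be told apart.

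Higher with siIFITM1 by at least 25% were 7 members, PARD6B, CGN, OCLN, DSC2, TJP1, JUP and MARVELD2, where 12.9% of genes past the filter were. All 7 were brighter genes, for which the share over the array was 9.5%. EVPLL, a dimmer gene, was the 1 member at least 20% lower, where 17.4% of genes past the filter and 1419 of 4432 dimmer genes were. Of the brighter members 0 were, where 9.1% of brighter genes were. PARD6B was at least 2-fold higher, as were 1.01% of genes past the filter and 14 of 7793 brighter genes. EVPLL was at least 2-fold lower, as were 2.01% of genes past the filter and 239 of 4432 dimmer genes. At the small line, MARVELD2 lay just inside at 1.26-fold and CLDN1 just outside at 1.24-fold. Measured against the SD between probe sets, 13 of the 28 brighter members were higher by more than that SD and 0 were lower by more than it, where 20.2% and 19.2% of brighter genes were.

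**Figure D1:**
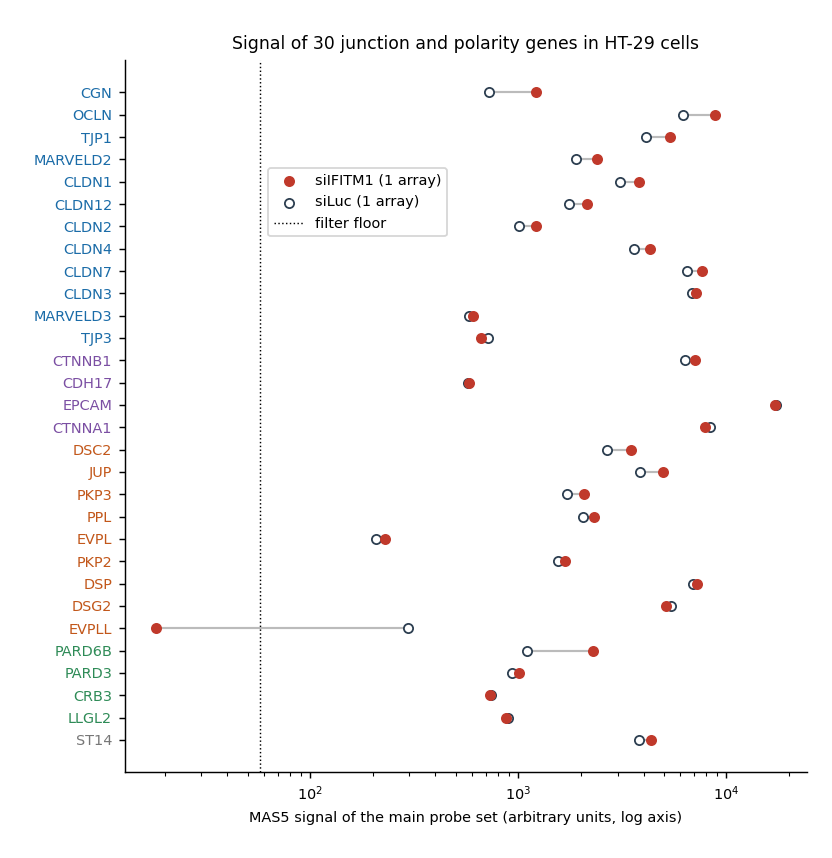
MAS5 signal (log axis, arbitrary units) of the main probe set of each of the 30 measured members on the siIFITM1 array (filled) and the siLuc array (open), grouped by structure and coloured by name, with the filter floor of 57.4 dotted. CGN, OCLN and PARD6B have the widest gaps to the right, EVPLL drops below the floor with siIFITM1, and EPCAM, CDH17 and CRB3 nearly coincide.

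Tight junction members were higher in 11 of 12 cases, with a median log2 ratio of 0.28, and TJP3 was the exception. This did not hold outside the member list, where 3 of 7 brighter tight junction genes were above 0, with a median of -0.13. Occludin (OCLN), a membrane protein of the strands, had a signal of 8867 with siIFITM1 and 6207 with siLuc, a log2 ratio of 0.51 (1.43-fold). It ranked 229 from the top among 7793 brighter genes. Of its other probe sets, one went to 998 with siIFITM1 against 572 with siLuc (0.80) and one to 607 against 443 (0.46). The dimmest probe set of OCLN was lower, at 190 with siIFITM1 and 221 with siLuc (-0.22), so 3 of 4 pointed up.

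Cingulin (CGN), which joins the junction to actomyosin, was higher by more than occludin. Its main probe set read 1219 with siIFITM1 and 724 with siLuc, a log2 ratio of 0.75 (1.68-fold) and rank 62 among brighter genes. The other CGN probe set read 615 with siIFITM1 and 363 with siLuc, a ratio of 0.76, so both gave nearly the same value. Both carry an ID ending in _s_at, which marks probes that can match several transcripts.

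The scaffolds differed between the zonula occludens members. TJP1, which binds claudins and occludin and recruits actin, read 5379 with siIFITM1 and 4128 with siLuc (0.38), and its other probe set read 1004 with siIFITM1 and 811 with siLuc (0.31). TJP3, a related scaffold found in epithelia, read 662 with siIFITM1 and 715 with siLuc (-0.11), and its other probe set was level at 366 on both arrays. TJP1 was thus higher at both probe sets by more than the SD between probe sets, and TJP3 lay within that SD at both.

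MARVELD2, or tricellulin, seals the points where 3 cells meet. It read 2380 with siIFITM1 and 1894 with siLuc (0.33), and a dimmer probe set read 245 with siIFITM1 and 198 with siLuc (0.31). MARVELD3, also of the occludin family, had no settled direction. Its main probe set read 608 with siIFITM1 and 581 with siLuc (0.07), the next 534 with siIFITM1 and 537 with siLuc, and the dimmest 204 with siIFITM1 and 290 with siLuc (-0.51), which averaged to -0.15.

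The 6 member claudins were above 0, at 0.08 to 0.31 with a median of 0.26, and 0 of the 6 reached the small line. CLDN1, a sealing claudin, read 3818 with siIFITM1 and 3073 with siLuc (0.31), but its other probe set read 491 with siIFITM1 and 471 with siLuc (0.06). CLDN2, which forms a pore for cations and water, read 1212 with siIFITM1 and 1005 with siLuc (0.27). Claudins outside the member list did not share one direction, with 3 of the 6 that passed the filter above 0 and 3 below. The brighter one of them, the pore-forming CLDN15, read 389 with siIFITM1 and 437 with siLuc (-0.17), with its other probe set at -0.34, and was named after its value was seen.

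CLDN12 read 2136 with siIFITM1 and 1748 with siLuc (0.29). CLDN4, a sealing claudin, read 4314 with siIFITM1 and 3617 with siLuc (0.25), and CLDN7, which is also found along the lateral membrane, read 7639 with siIFITM1 and 6452 with siLuc (0.24). A probe set of CLDN4 below the filter read 5.50 with siIFITM1 and 24.9 with siLuc, and averaging both probe sets turned the ratio of CLDN4 to -0.96. CLDN3 had the smallest claudin ratio, with 7170 with siIFITM1 and 6805 with siLuc (0.08), and 0.195 at its other probe set. Both probe sets of CLDN3 have IDs that mark probes matching several transcripts. The main ratios of CLDN12, CLDN4 and CLDN7 exceeded the SD of 0.193 between probe sets. The main ratio of CLDN3 did not, while its other probe set lay just past that SD.

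Promoter windows show what the higher tight junction genes have in common or lack in sequence next to their start. RefSeq's table for GRCh38.p14 held windows for 18 of the 33 members, 30 windows in all because 8 of the genes have several starts. The 250 bases before the start are shown for the 4 tight junction genes past the small line, at their most upstream start, and for the polarity gene CRB3, which was level between the arrays. Capitals mark CAGGTG or CACCTG, the E-box bound by the Snail and ZEB repressors of epithelial genes, and GGGCGG or CCGCCC, the GC box, on either strand, with overlapping copies run together.
CGN, chr1:151511137-151511386, plus strand: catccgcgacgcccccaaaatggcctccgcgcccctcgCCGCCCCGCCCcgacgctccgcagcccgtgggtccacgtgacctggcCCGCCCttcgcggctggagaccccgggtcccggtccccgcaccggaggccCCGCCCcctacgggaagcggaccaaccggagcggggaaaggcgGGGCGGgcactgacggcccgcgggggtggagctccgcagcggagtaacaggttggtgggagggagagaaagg
OCLN, chr5:69492297-69492546, plus strand: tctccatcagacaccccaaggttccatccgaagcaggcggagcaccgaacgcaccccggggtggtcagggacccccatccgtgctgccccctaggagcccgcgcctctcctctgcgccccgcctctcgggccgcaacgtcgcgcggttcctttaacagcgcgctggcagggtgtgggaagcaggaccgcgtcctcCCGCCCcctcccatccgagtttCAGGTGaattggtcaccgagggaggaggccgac
TJP1, chr15:29969050-29969299, minus strand: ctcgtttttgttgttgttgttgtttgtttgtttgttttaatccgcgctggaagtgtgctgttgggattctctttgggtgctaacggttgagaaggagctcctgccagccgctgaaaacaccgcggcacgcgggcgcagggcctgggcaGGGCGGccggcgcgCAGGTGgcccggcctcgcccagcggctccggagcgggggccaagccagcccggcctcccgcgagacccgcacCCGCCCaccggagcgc
MARVELD2, chr5:69414866-69415115, plus strand: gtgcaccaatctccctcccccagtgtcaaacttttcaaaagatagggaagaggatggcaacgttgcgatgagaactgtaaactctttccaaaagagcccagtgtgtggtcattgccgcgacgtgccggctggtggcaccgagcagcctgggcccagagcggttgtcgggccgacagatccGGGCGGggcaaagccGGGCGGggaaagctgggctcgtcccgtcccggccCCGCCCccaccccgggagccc
CRB3, chr19:6464021-6464270, plus strand: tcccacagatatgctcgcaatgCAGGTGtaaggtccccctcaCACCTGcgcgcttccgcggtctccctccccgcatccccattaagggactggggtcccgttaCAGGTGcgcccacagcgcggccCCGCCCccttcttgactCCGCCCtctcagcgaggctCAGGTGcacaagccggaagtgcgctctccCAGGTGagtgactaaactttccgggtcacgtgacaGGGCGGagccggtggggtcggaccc

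The window of CRB3 holds 5 E-box copies, those of OCLN and TJP1 hold 1 each, and those of CGN and MARVELD2 hold 0. CRB3 has the most copies of any member window, so it does not stand for the other level genes. Among windows not shown, a window of CLDN7 (ratio 0.24) holds 4 copies. Those of CTNNA1 (-0.07) and CLDN3 (0.08) hold 0. Counting every window of a gene, 9 of 18 members held an E-box, as did 20.6% of all 27305 genes in the table. By window, the shares were 33.3% for members and 17.5% over the table. The GC box was in 70.0% of member windows and in 42.6% over the table, and the median GC content was 66.4% for members and 58.0% over the table. The 9 members with an E-box had log2 ratios from -0.11 to 0.51 (median 0.24), and the 9 without had ratios from -0.07 to 0.75 (median 0.27). The letters alone say nothing of which factor was present in these cells.

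Adherens junction members showed no common direction, with 2 of 4 measured members above 0 and a median of 0.00. Outside the member list, 9 of 11 brighter adherens junction genes were above 0, with a median of 0.27. Beta-catenin (CTNNB1), which binds cadherin tails and also acts in Wnt signalling, read 7085 with siIFITM1 and 6365 with siLuc (0.15). Its next probe set read 399 with siIFITM1 and 421 with siLuc (-0.08), and the dimmest read 192 with siIFITM1 and 102 with siLuc (0.90). The main ratio lay within the SD between probe sets.

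Alpha-catenin (CTNNA1), which connects beta-catenin to actin, was slightly lower at every probe set. The main probe set read 7924 with siIFITM1 and 8341 with siLuc (-0.07), and the other 4 had ratios from -0.34 to -0.03. The 2 probe sets of CTNNA1 at -0.34 were its dimmest, and 4 of the 5 have IDs that mark probes matching several transcripts. EPCAM, the epithelial adhesion molecule, read 17180 with siIFITM1 and 17339 with siLuc (-0.01). CDH17, the liver-intestine cadherin, read 579 with siIFITM1 and 574 with siLuc (0.01). These last genes were level between the arrays.

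Desmosome members were above 0 in 7 of 9 cases with a median of 0.14. EVPLL, whose siIFITM1 signal was below the filter floor, was far lower than the rest. Desmocollin 2 (DSC2), one of the desmosomal cadherins, read 3486 with siIFITM1 and 2668 with siLuc (0.39). Its other 3 probe sets were also above 0, at 0.07 to 0.21. Plakoglobin (JUP), which links those cadherins to desmoplakin, read 4938 with siIFITM1 and 3841 with siLuc (0.36), at its single probe set, which has such an ID too. Desmoglein 2 (DSG2), the other desmosomal cadherin of simple epithelia, was not higher with its partner. It read 5116 with siIFITM1 and 5412 with siLuc (-0.08), and 1351 with siIFITM1 and 1249 with siLuc (0.11) at its other probe set.

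Plakophilins cluster the desmosomal cadherins. PKP3 read 2077 with siIFITM1 and 1708 with siLuc (0.28), but 519 with siIFITM1 and 547 with siLuc (-0.08) at its other probe set. PKP2 read 1677 with siIFITM1 and 1547 with siLuc (0.12), and its dimmer probe set read 115 with siIFITM1 and 154 with siLuc (-0.42). Neither plakophilin kept its sign over its probe sets, and the average for PKP2 was -0.15.

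Among the plakins, which tie desmosomes to keratin, 3 of 4 were close to level. Desmoplakin (DSP) read 7211 with siIFITM1 and 6954 with siLuc (0.05), and periplakin (PPL) read 2308 with siIFITM1 and 2039 with siLuc (0.18). Envoplakin (EVPL), a dimmer gene, read 229 with siIFITM1 and 208 with siLuc (0.14). EVPLL, named for its likeness to envoplakin, stood far from them at 18.1 with siIFITM1 and 295 with siLuc, a log2 ratio of -4.02. This was the lowest ratio of all 12225 genes past the filter. EVPLL rested on 1 probe set and passed the filter through its siLuc signal alone. Because the siIFITM1 signal was below the floor of 57.4, the ratio can be read only as a bound, at least 5.14-fold lower.

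**Figure D2:**
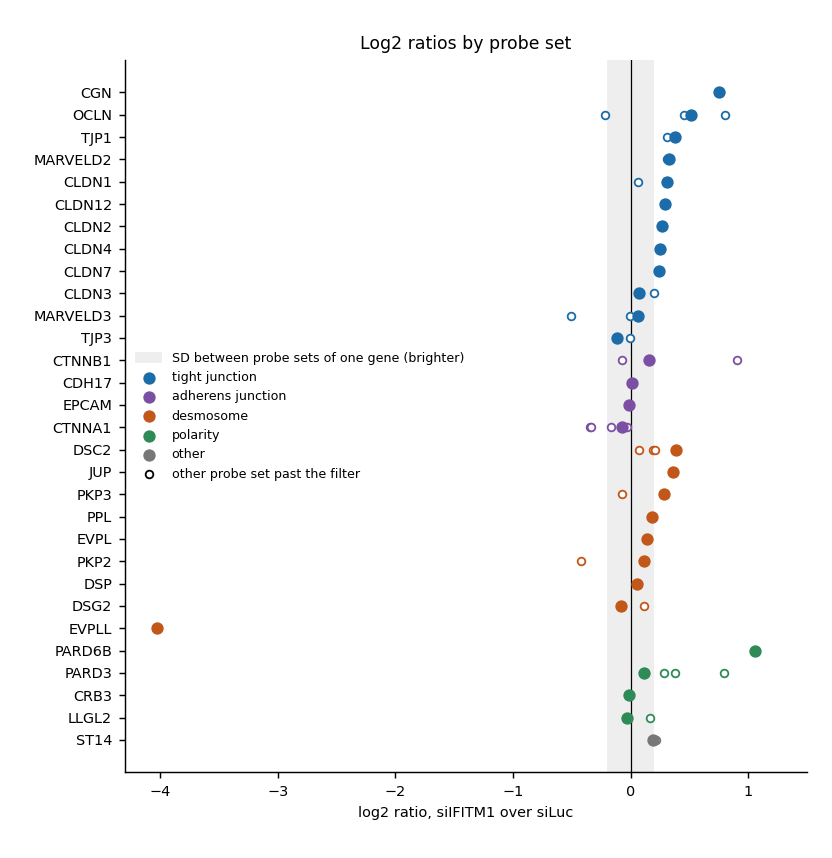
Log2 ratio of siIFITM1 over siLuc for each member's main probe set (filled) and its other probe sets past the filter (open), coloured by structure, with the grey band at plus and minus 0.193, the SD between probe sets of one brighter gene. The main points of 13 brighter members lie right of the band, among them the 4 highest tight junction genes, DSC2, JUP and PARD6B. The 4 adherens junction main points lie inside it, and EVPLL lies far left at -4.02.

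Polarity members were split, with 2 of 4 above 0 and a median of 0.05, and 1 of them had the highest ratio of the set. Outside the member list, 9 of 12 brighter polarity genes were above 0. PARD6B, an adaptor that brings Cdc42 and atypical protein kinase C to the apical Par complex, read 2292 with siIFITM1 and 1100 with siLuc, a log2 ratio of 1.06 (2.08-fold) and rank 10 among 7793 brighter genes. Its other probe sets were below the filter and read 74.3 with siIFITM1 against 20.7 with siLuc, and 40.9 with siIFITM1 against 22.1 with siLuc. All 3 were higher with siIFITM1.

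PARD3, the scaffold that binds PARD6 proteins and docks the complex at tight junctions, was above 0 at 4 of 4 probe sets. The main one read 1004 with siIFITM1 and 929 with siLuc (0.11), and the others had ratios of 0.38, 0.28 and 0.79. The largest of these came from the dimmest probe set, at 105 with siIFITM1 and 60.6 with siLuc. CRB3, the Crumbs protein of epithelial apical membranes, read 734 with siIFITM1 and 742 with siLuc (-0.02). LLGL2, a basolateral protein that opposes the Par complex, read 870 with siIFITM1 and 891 with siLuc (-0.03), and 650 with siIFITM1 and 582 with siLuc (0.16) at its other probe set. Within the polarity group, PARD6B alone exceeded the SD between probe sets at its main probe set.

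Outside the 4 groups, ST14, the membrane protease matriptase that acts on epithelial barriers, read 4348 with siIFITM1 and 3808 with siLuc (0.19), and its next probe set gave 0.21. Its remaining probe set was below the filter on both arrays, at 11.3 with siIFITM1 and 25.4 with siLuc, and averaging all 3 turned the ratio of ST14 to -0.26.

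**Figure D3:**
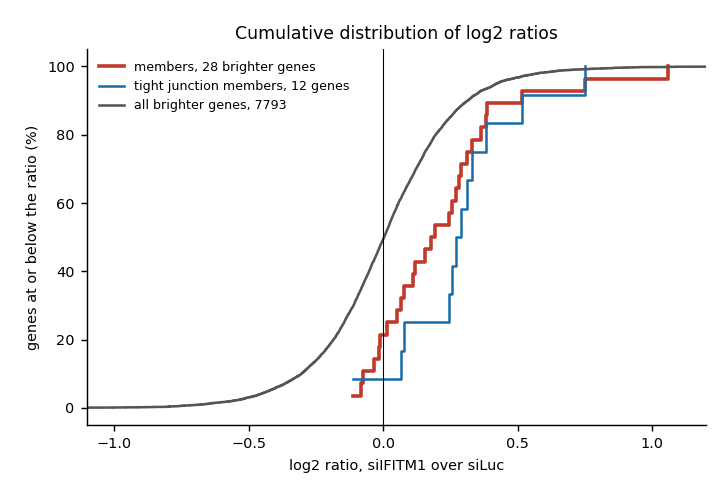
Cumulative share of genes (percent) at or below each log2 ratio of siIFITM1 over siLuc, for the 28 brighter members, the 12 tight junction members and all 7793 brighter genes. Both member curves lie right of the curve for all brighter genes below a ratio of about 0.5, with medians of 0.19 and 0.28 against 0.00.

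Probe sets of the same gene gave a partial check of direction within each array pair. The 30 genes had 62 probe sets, of which 58 passed the filter, 40 of them above 0 and 18 below. Over all genes, 11034 of 23024 such probe sets were above 0. Of 17 members with several probe sets past the filter, 8 (47.1%) had all of them above 0, CLDN1, CLDN3, MARVELD2, TJP1, CGN, DSC2, PARD3 and ST14. CTNNA1 and TJP3 had all of them below 0 (11.8%), and 7 (41.2%) were mixed. Over the 6087 such genes of the array, 22.6% had all above 0, 25.8% all below and 51.6% were mixed.

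**Figure D4:**
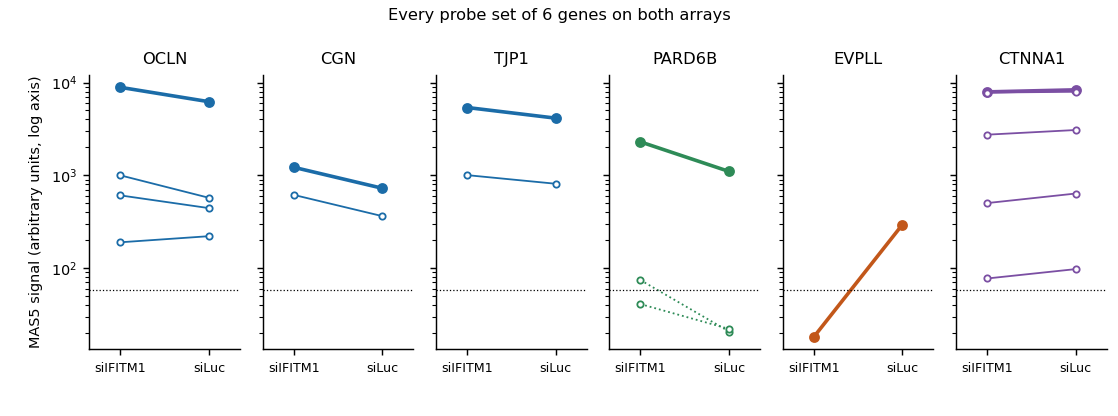
MAS5 signal (log axis, arbitrary units) of every probe set of OCLN, CGN, TJP1, PARD6B, EVPLL and CTNNA1 on the siIFITM1 and siLuc arrays, with the main probe set filled, those of PARD6B below the filter as dotted lines and the floor of 57.4 dotted. Lines of CGN, TJP1 and PARD6B all slope the same way, 1 of 4 lines of OCLN slopes the other way, and EVPLL has 1 line that ends below the floor with siIFITM1.

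Other genes of the same structures, listed with 8 epithelial genes outside them, were also more often above 0 than below it. Of these 83 genes, listed by textbook role, 78 had a probe set, 54 passed the filter and 40 were brighter. All 8 genes outside the structures were brighter, and 5 of them were above 0. Of the 54, 32 were above 0, 15 were at least 25% higher and 8 at least 20% lower, with a median of 0.11. The shares over all genes past the filter were 47.4%, 12.9% and 17.4%. Of the 40 brighter genes, 27 were above 0, 11 were at least 25% higher and 3 at least 20% lower, with a median of 0.15. Over all brighter genes these shares were 50.5%, 9.5% and 9.1%. The other adherens junction genes had 9 of 11 brighter genes above 0 with a median of 0.27, and the other polarity genes had 9 of 12 with a median of 0.12. The other tight junction genes had 3 of 7 brighter genes above 0 and a median of -0.13.

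E-cadherin (CDH1), the main cadherin of epithelial adherens junctions, read 13183 with siIFITM1 and 10928 with siLuc (0.27), and its other probe set gave 0.13. Named after their values were seen, the 5 brighter adherens junction genes at least 25% higher were PDLIM5 (0.45), the nectin-binding scaffold afadin AFDN (0.42), the actin linker LIMA1 (0.37), PLEKHA7 (0.35) and vezatin VEZT (0.35). Probe sets of LIMA1 and PLEKHA7 all pointed up, while those of AFDN reached -0.86, of PDLIM5 -0.33 and of VEZT -0.12. The transcription factor GRHL1, of a family that drives junction genes in epithelia, read 1525 with siIFITM1 and 1002 with siLuc (0.61). Its other probe set was at 0.33. GRHL2, of the same family and given here outside the rule for naming genes, was not higher. It read 1671 with siIFITM1 and 1793 with siLuc (-0.10) at 1 probe set. The part of either in the junction ratios was not tested.

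The paralogs of PARD6B did not share its direction. PARD6A read 400 with siIFITM1 and 527 with siLuc (-0.40), at 1 probe set. PARD6G, a dimmer gene, read 69.2 with siIFITM1 and 114 with siLuc (-0.71), with its other probe set at -0.47. The value of PARD6A is given after it was seen, with those of SYMPK (-0.35) and DLG3 (-0.34), because these 3 made up the count of brighter genes at least 20% lower. By the naming rule the remaining genes were dimmer, the claudins CLDN19, CLDN10 and CLDN5 and the desmosomal linker kazrin KAZN. CLDN19 read 197 with siIFITM1 and 102 with siLuc (0.95), with its other probe set past the filter at 0.16. KAZN read 461 with siIFITM1 and 315 with siLuc (0.55), with its other probe set past the filter at 1.59. CLDN10 read 61.4 with siIFITM1 and 115 with siLuc (-0.91), and CLDN5 read 47.4 with siIFITM1 and 84.3 with siLuc (-0.83). The siIFITM1 signal of CLDN5 was below the filter floor, so CLDN5 passed through its siLuc signal alone. The size of its ratio is therefore not settled.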

How the data were processed

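Total RNA of each culture was amplified to biotin-labelled cRNA and read on 1 single-colour array, per the labels' protocols. The deposited values are intensities, MAS5 signals on a linear scale, per the submitters' processing notes, which name no version in the sources used here. Their mean after trimming 2% of probe sets at each end was 500.1 on both arrays. Detection calls were not used.

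Of 54613 probe sets that are not controls, 41091 name 1 gene in the platform annotation, 1801 several and 11721 none. Symbols were updated through Entrez IDs (41037 matched). Signals were taken to log2 with no further scaling. Members and lists were chosen with earlier results of these data known. Every member is named. All probe sets are given for members past the SD between probe sets or of mixed sign. Of the other junction genes, CDH1 and the 6 largest ratios of one sign were named by rule. GRHL2 was named outside it, as were the genes said to be given after their values were seen. With 1 array per siRNA no test was run. The scalings, filters and probe set rules tried as alternatives are given with their effect in the closing section. The functions were tested on simulated data. Promoter windows were read from RefSeq's table, without the 50 bases after each start. Python 3.11.15, numpy 2.4.6, pandas 2.3.3, statsmodels 0.14.6 and matplotlib 3.10.9 were used.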

Additional observations from a re-analysis of the deposited data

How the results depend on the processing

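The direction of the set did not depend on the settings tried. These were median centring, quantile normalization, subtraction of a loess trend (span 0.3), a pseudocount of 32, signals raised to the floor, a filter at the 75th percentile, no filter at all, a gene's mean over its probe sets, and omission of probe sets with shared probes (_x_at or _s_at). The median over members lay between 0.14 and 0.19. Members above 0 numbered 21 to 25 of 30, 22 of 28 with the stricter filter and 18 of 23 without shared probes. Members at least 25% higher numbered 5 to 8. Those at least 20% lower numbered 0 with the stricter filter, which leaves EVPLL out, and 2 with the mean over probe sets and without shared probes. Members beyond 2-fold numbered 1 with the stricter filter and 2 otherwise. The main ratio of CLDN4 (0.25) was -0.96 and that of ST14 (0.19) was -0.26 with the mean over probe sets, which gives probe sets below the filter equal weight. That mean also turned MARVELD3 to -0.15 and PKP2 to -0.15, and gave 0.39 for PARD3 and 1.26 for PARD6B. Without shared probes CTNNA1 was at -0.34 and LLGL2 at 0.16. EVPLL was at -2.70 with the pseudocount and at -2.36 at the floor. With the tight junction genes alone, 9 to 11 of 12 were above 0, and 9 of 10 without shared probes. No paired analysis was possible because there is 1 array per siRNA. No replicate could be left out for the same reason.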

Other observations

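Probe sets that name a member together with another gene were kept out of the comparison. The 4 annotated to both CTNND1 and its read-through transcript TMX2-CTNND1 were all higher with siIFITM1, with log2 ratios of 0.15, 0.23, 0.10 and 0.24. The probe set annotated to both ESRP2 and MIR6773 read 1715 with siIFITM1 and 1574 with siLuc (0.12).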
